A study of Homo sapiens with 6 samples.

Results

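The retinoblastoma family, the MuvB complex and its activators MYBL2 and FOXM1 were examined as 10 genes of the 20348 in the table. They were chosen by role, by their gene symbols, with earlier results of the same contrast known. Their values are therefore given as a description, with the call of each gene and no test of the members as a set. The members were 3 pocket proteins (RB1, RBL1 and RBL2), 5 subunits of the MuvB core (LIN9, LIN37, LIN52, LIN54 and RBBP4) and 2 activators (MYBL2 and FOXM1). MV4-11 is an established human acute myeloid leukemia (AML) line, and WNK463 is an inhibitor of WNK kinases. The Ctrl group was 3 samples of untreated MV4-11 cells, and the WNK463 group was 3 samples of the same line given 1 μM WNK463, with RNA taken at 48 h. The comparison asked how the transcriptome of these cells differed after the inhibitor. The labels do not say whether the 3 samples of a group came from separate cultures, so the errors measure the spread between these samples only.

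Pocket proteins bind E2F transcription factors and hold genes for DNA synthesis silent until cyclin-dependent kinases phosphorylate them. The MuvB core joins RBL1 or RBL2 with E2F4 or E2F5 into the DREAM complex, which represses cell cycle genes in resting cells. In cycling cells the same core takes up MYBL2 and later FOXM1, and then activates genes of mitosis, so one core serves repression and activation at different times. Loss of pocket protein function and high MYBL2 or FOXM1 are widely described in dividing tumor cells, leukemia among them.

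Total counts ranged from 14915745 to 17411780 per sample, and 11973 genes passed the filter on low counts, the 10 members among them. Values of a gene are given as CPM (counts scaled to a common library size by the TMM method), and levels are compared between genes as TPM, which are scaled to transcript length as well. A gene was called at an adjusted p below 0.05 in edgeR's quasi-likelihood test over all genes tested. Called lower with WNK463 were 35.3% of the genes tested, and called higher were 35.5%. Among the members 6 were called lower and 2 higher, counts from which nothing is read because the contrast was known when they were chosen. At a change of at least 2-fold, 5.55% of all genes were called lower and 9.62% higher, and 2 members, MYBL2 and RBL1, were called lower at that size. The median log2 fold change was -0.31 over the members and 0.02 over all genes tested, and the members' median was -0.155 with total counts and -0.205 in limma on log2(TPM + 1). Scaling by total counts moved the median of all genes up by 0.15 to 0.17, so changes of that size depend on the scaling. With that scaling, 63.8% of the called genes were higher, against 50.2% with TMM. Called lower were then 3125 of the 11973 genes (26.1%), and 2698 (22.5%) in limma on log2(TPM + 1), against 4222 with TMM. RNA was read from whole cultures, where fewer cells expressing a gene and less of its RNA per cell cannot be told apart.

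MYBL2, also called B-MYB, is the activator that joins MuvB from S phase on. Its CPM was 365, 336 and 334 in the Ctrl samples and 70.5, 64.1 and 67.8 in the WNK463 samples. The groups were far apart, and each group was tight. MYBL2 fell by 2.36 on the log2 scale (SE 0.06), or 5.12-fold. FOXM1, a forkhead factor that binds MuvB target genes in G2 phase, had 160, 164 and 149 CPM in Ctrl and 91.2, 90.3 and 94.1 in WNK463. All 3 treated samples lay below all 3 controls, with a log2 fold change of -0.78 (SE 0.05), or 1.71-fold lower. Per length, MYBL2 RNA was 2.74, 2.44 and 2.66 times that of FOXM1 in Ctrl and 0.966, 0.868 and 0.884 times in WNK463. The order of these activators by TPM was thus inverted in each treated sample.

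RBL1 (p107) is the pocket protein whose own gene is transcribed by E2F in cycling cells. Its CPM was 114, 123 and 131 in Ctrl and 51.3, 45.2 and 46.5 in WNK463. The WNK463 samples were all below the controls, and RBL1 fell by 1.36 on the log2 scale (SE 0.07), or 2.58-fold. The transcript length behind its TPM, read from the ratio of count to TPM, deviated by up to 12.5% from its mean over the samples, with samples of both groups above and below, against a median of 4.22% over genes. RBL1 levels per length are therefore less exact than those of RB1, where this deviation was 1.28%.

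RBL2 (p130) is the pocket protein that prevails in resting cells and in their DREAM complex. It had 178, 183 and 189 CPM in Ctrl and 217, 199 and 199 CPM in WNK463. The groups did not overlap, but the step was small, with a log2 fold change of 0.16 (SE 0.05), and WNK463 replicate 1 stood above the other treated samples. Without that sample the difference was 0.12 and was no longer called, and with total counts it was 0.31. RB1, the tumor suppressor that restrains E2F1 to E2F3, had 178, 196 and 215 CPM in Ctrl and 299, 292 and 305 CPM in WNK463. Each treated sample exceeded each control, at a log2 fold change of 0.60 (SE 0.06), or 1.52-fold higher.

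**Figure D1:**
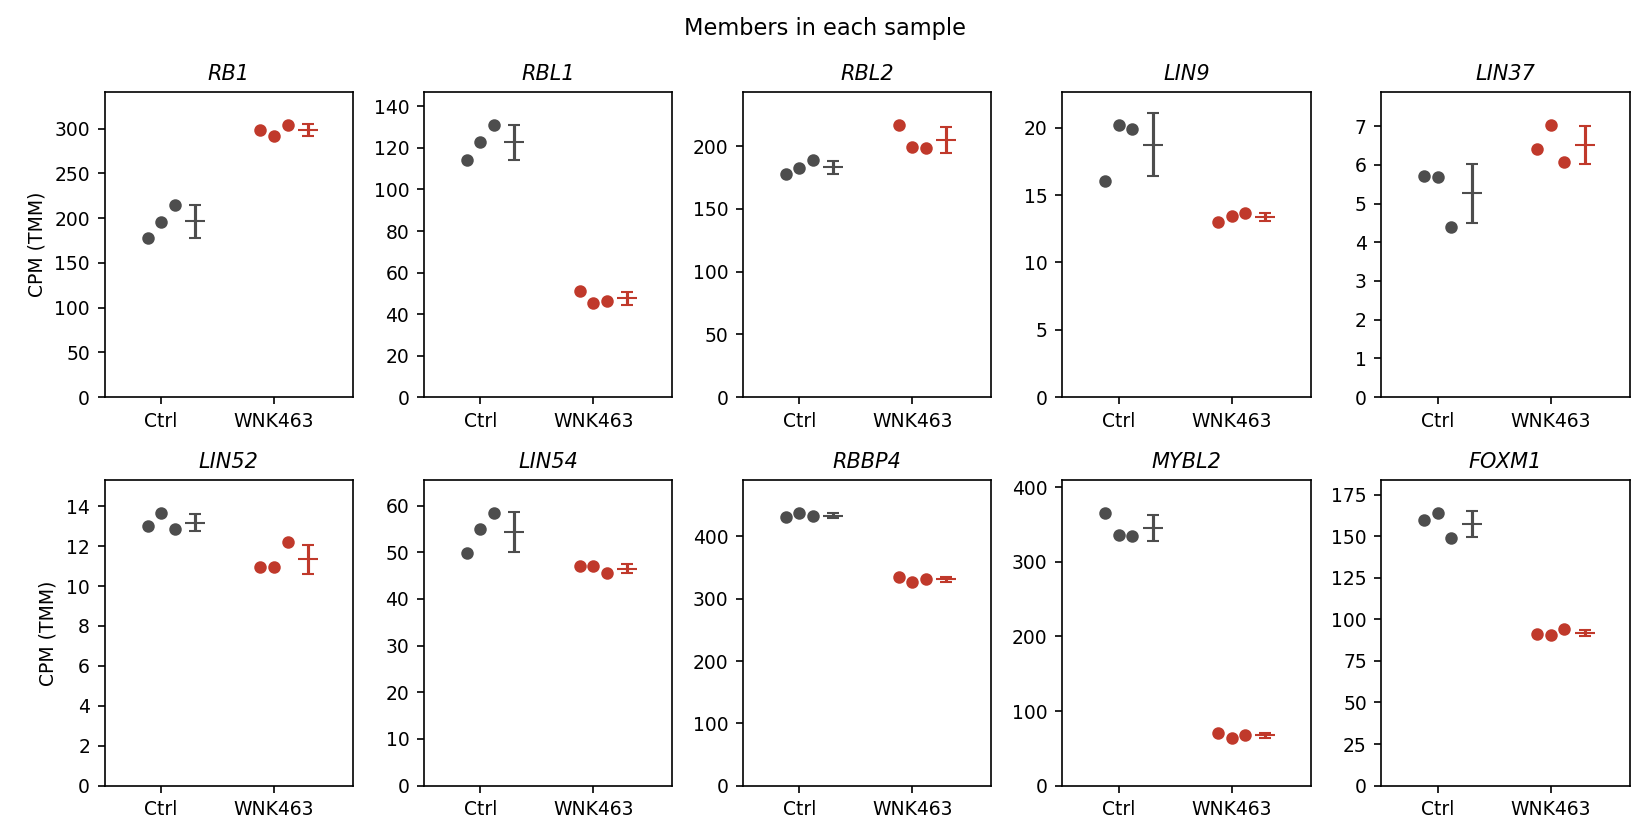
CPM (TMM scaled, linear axes from 0) of each member in the 3 Ctrl (grey) and 3 WNK463 (red) samples, 1 point per sample, with the group mean and SD as a bar beside the points. MYBL2 lies at 334 to 365 CPM in Ctrl and 64.1 to 70.5 CPM in WNK463, and RB1 at 178 to 215 and 292 to 305 CPM.

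The makeup of the pocket protein RNA differed between the groups. RBL1 made up 23.1%, 22% and 26.2% of the summed TPM of the pocket proteins in Ctrl, and 9.29%, 7.22% and 7.91% in WNK463. The RB1 share was 38.8%, 40.7% and 39.6% in Ctrl and 53.0%, 55.6% and 55.9% in WNK463. These shares did not overlap between groups for RBL1 and RB1, whereas RBL2 kept 34.1% to 38.1% in Ctrl and 36.2% to 37.7% in WNK463, overlapping ranges. Their summed level was 193 TPM ± 17.9 (SD, n = 3) in Ctrl and 243 TPM ± 7.93 (SD, n = 3) in WNK463. TPM carry no TMM scaling, and the median log2 fold change of all genes on log2(TPM + 1) was 0.16, so part of this rise goes with the scale. On TMM scaled CPM, which weigh longer transcripts more, the sum was 502 CPM ± 32.1 (SD, n = 3) in Ctrl and 551 CPM ± 15.6 (SD, n = 3) in WNK463. RBL1 stood at 0.608, 0.589 and 0.768 of the RBL2 level in Ctrl and at 0.246, 0.194 and 0.219 in WNK463.

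**Figure D2:**
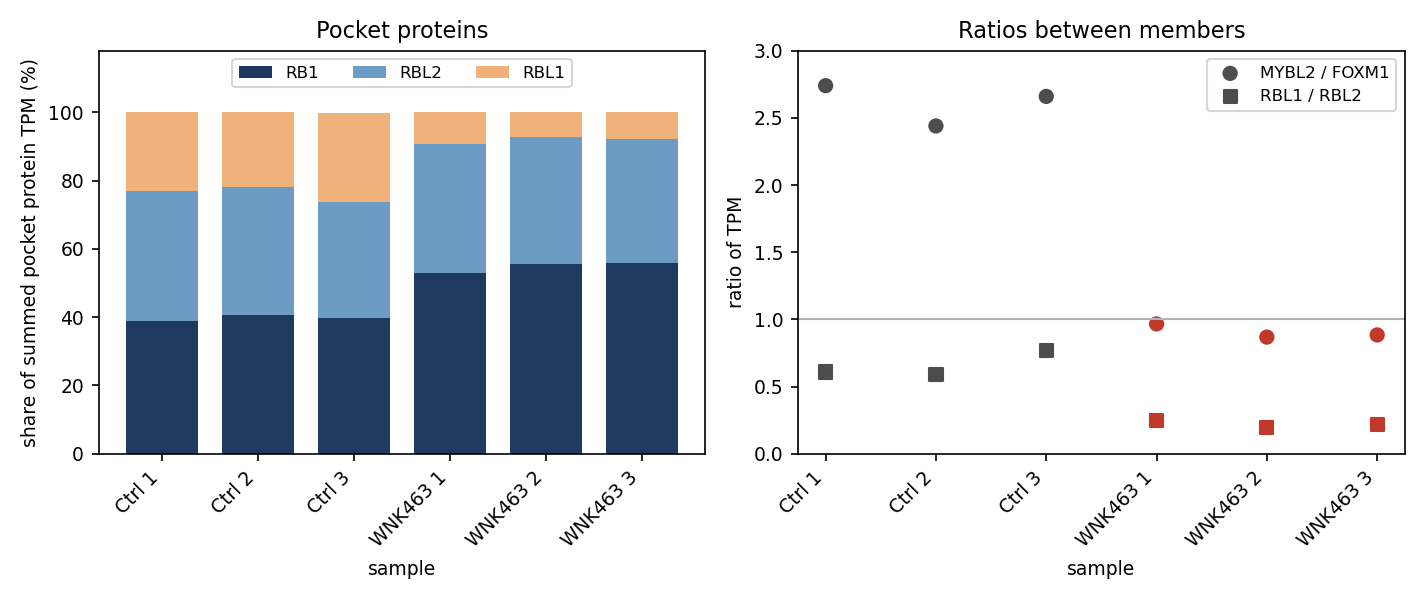
Left, share of RB1, RBL2 and RBL1 in the summed pocket protein TPM (percent, stacked bars) in each of the 6 samples. Right, TPM ratio of MYBL2 to FOXM1 (circles) and of RBL1 to RBL2 (squares) in each Ctrl (grey) and WNK463 (red) sample; the line marks equal levels, and the MYBL2 to FOXM1 ratio lies at 2.44 to 2.74 in Ctrl and 0.868 to 0.966 in WNK463.

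The log2 fold changes of the MuvB core subunits lay between -0.49 and 0.31. RBBP4, a histone-binding WD40 protein that also serves other chromatin complexes, had 430, 437 and 433 CPM in Ctrl and 335, 326 and 332 CPM in WNK463. Both groups were tight and apart, with a log2 fold change of -0.39 (SE 0.04), which was -0.24 with total counts and still called. LIN9, which links MuvB to MYBL2, had 16.1, 20.2 and 19.9 CPM in Ctrl and 13.0, 13.4 and 13.7 CPM in WNK463. Ctrl replicate 1 was the lowest control, and the log2 fold change was -0.49 (SE 0.11), but -0.29 and not called in limma on log2(TPM + 1).

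LIN54 is the subunit that binds the CHR element in DNA. It had 49.7, 54.9 and 58.4 CPM in Ctrl and 47.0, 47.0 and 45.5 CPM in WNK463. The gap between the groups was narrow, the log2 fold change was -0.22 (SE 0.07), and the call was lost with total counts, at -0.07. LIN52, whose phosphorylated form ties the core to RBL1 or RBL2, had counts of 214, 199 and 211 in Ctrl and 181, 188 and 191 in WNK463. Its log2 fold change of -0.22 (SE 0.11) was not called, and it was 0.000973 in limma on log2(TPM + 1). LIN37, needed for repression by DREAM, was the member with the fewest counts, 94, 83 and 72 in Ctrl and 106, 121 and 95 in WNK463. Those counts gave a log2 fold change of 0.31 (SE 0.16), not called, while total counts gave 0.46 and a call. Ctrl replicate 3 had the lowest count, and without it the value was 0.18.

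**Figure D3:**
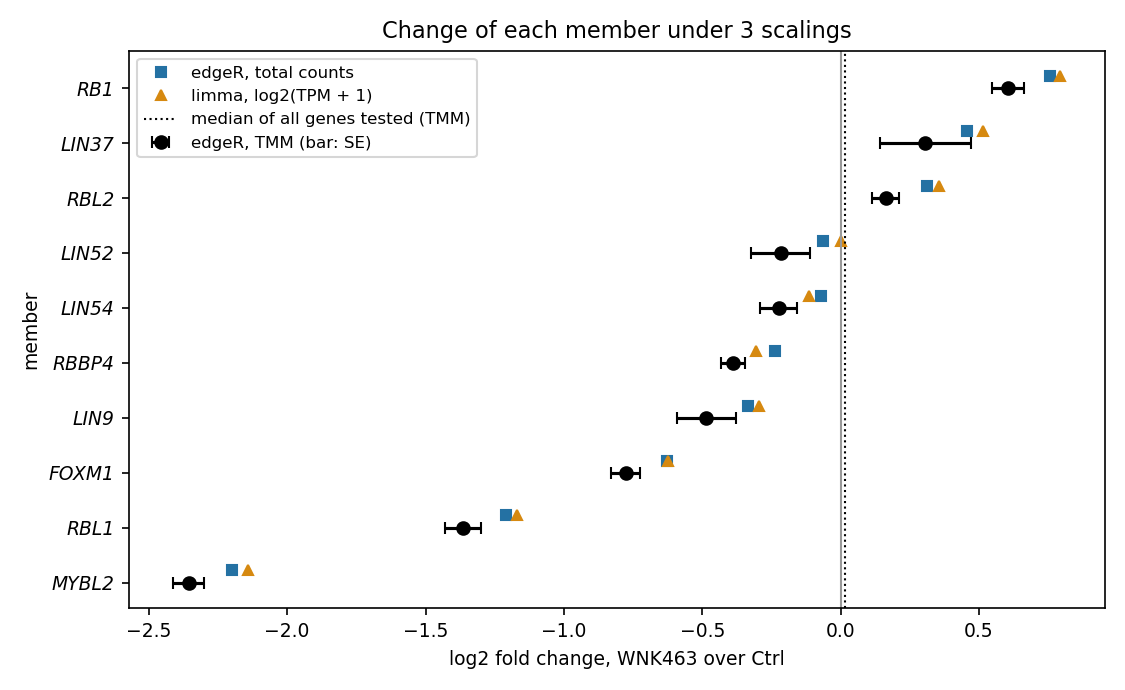
Log2 fold change of each member, WNK463 over Ctrl, from edgeR with TMM (black, bar: SE, n = 3 per group), edgeR with total counts (blue) and limma on log2(TPM + 1) (orange); the dotted line is the median of all genes tested. From MYBL2 at -2.36 to RB1 at 0.60 the order follows TMM, the other scalings lie to the right, and LIN52 moves from -0.22 to 0.000973 on TPM.

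On the CPM scale the 3 WNK463 values lay beyond the 3 Ctrl values for all 10 members, below for 7 and above for 3, as they did for 73.5% of the genes tested. On the TPM scale they lay below for 5 and above for 3, and LIN52 and LIN54 overlapped, where 70.5% of the genes tested did not overlap.

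By TPM the members spanned a wide range. RBBP4 led in both groups, at 396 ± 13.0 TPM (SD, n = 3) in Ctrl and 320 ± 5.66 TPM in WNK463. In Ctrl it was followed by MYBL2 (240 ± 9.41 TPM), FOXM1 (92.0 ± 4.52 TPM), RB1 (76.6 ± 7.79 TPM), RBL2 (70.2 ± 2.62 TPM), RBL1 (46.1 ± 8.28 TPM) and LIN54 (29.2 ± 3.23 TPM). LIN9, LIN37 and LIN52 came last, at 12.2 ± 1.95, 9.87 ± 1.58 and 8.52 ± 0.322 TPM. Among neighbours in that order, RB1 and RBL2, LIN9 and LIN37, and LIN37 and LIN52 overlapped. In WNK463, RB1 took the place after RBBP4, at 133 ± 1.93 TPM, before RBL2 (90.0 ± 4.23 TPM), FOXM1 (59.3 ± 1.28 TPM), MYBL2 (53.7 ± 2.35 TPM), LIN54 (26.8 ± 0.635 TPM) and RBL1 (19.8 ± 3.23 TPM). LIN37 (14.4 ± 1.22 TPM), LIN9 (9.68 ± 0.0635 TPM) and LIN52 (8.53 ± 0.441 TPM) closed that order, in which the ranges of neighbours did not overlap.

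RBBP7 is the close paralog of RBBP4. RBBP4 stood at 2.42, 2.51 and 2.54 times the RBBP7 TPM in Ctrl and at 2.54, 2.41 and 2.51 times in WNK463, overlapping ranges, while both genes were called lower. RBBP7 had a log2 fold change of -0.47 (SE 0.05). The other paralogs outside the members went in different directions. MYB, the hematopoietic relative of MYBL2, was lower at -0.49 (SE 0.04), and MYBL1 was not called at 0.18 (SE 0.14), a value that leaving out 1 sample moved as far as 0.04 (without Ctrl replicate 3) and 0.29 (without Ctrl replicate 2), and to 0.06 without WNK463 replicate 2. FOXO3, a forkhead factor active in resting cells, was higher at 0.60 (SE 0.07). FOXO1 had counts of 6, 4 and 7 in Ctrl and 25, 28 and 16 in WNK463, for a log2 fold change of 1.94 (SE 0.41) that rests on few counts and was 0.435 on log2(TPM + 1).

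Promoters were read from RefSeq (build GRCh38.p14) as windows of 250 bases before to 50 after each start. The table held 15 windows for 9 of the members, and FOXM1 was not matched. Both strands were searched for the CHR letters TTTGAA and TTCGAA, for the E2F letters TTTCCCGC and TTTGGCGC and TTTCGCGC and TTTGCCGC, and for CCAAT. Of the 35116 windows in the table, 16.4% held a CHR match, 3.31% an E2F match and 34.6% a CCAAT match. By gene the shares were 19.5%, 3.99% and 39.7%, and among the 9 members matched 4 held CHR letters, 2 E2F letters and 4 CCAAT. Windows of a gene can overlap: the LIN54 windows hold the same TTTGAA, and a CCAAT is shared by the RBBP4 windows. The 2 windows with E2F letters, of RBL1 and LIN52, and that of MYBL2, which holds none of the letters searched, are shown because RBL1 and MYBL2 fell together and LIN52 was not called. Capitals mark the matches. RBL1 lies at chr20:37095948-37096247 on the minus strand, LIN52 at chr14:74084706-74085005 and MYBL2 at chr20:43666864-43667163 on the plus strand, each printed 5′ to 3′ along its gene:
RBL1: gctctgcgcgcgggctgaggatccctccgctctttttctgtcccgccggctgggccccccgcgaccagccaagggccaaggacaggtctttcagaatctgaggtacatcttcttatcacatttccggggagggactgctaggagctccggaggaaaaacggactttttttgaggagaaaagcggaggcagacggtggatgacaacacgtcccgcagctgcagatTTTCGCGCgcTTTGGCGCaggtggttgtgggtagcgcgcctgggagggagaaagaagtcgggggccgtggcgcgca
LIN52: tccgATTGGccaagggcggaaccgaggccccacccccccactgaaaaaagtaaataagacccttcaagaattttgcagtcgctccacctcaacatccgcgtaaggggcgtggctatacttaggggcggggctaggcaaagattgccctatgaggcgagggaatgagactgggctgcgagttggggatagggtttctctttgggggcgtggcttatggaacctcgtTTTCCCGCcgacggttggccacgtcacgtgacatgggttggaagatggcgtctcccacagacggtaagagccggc
MYBL2: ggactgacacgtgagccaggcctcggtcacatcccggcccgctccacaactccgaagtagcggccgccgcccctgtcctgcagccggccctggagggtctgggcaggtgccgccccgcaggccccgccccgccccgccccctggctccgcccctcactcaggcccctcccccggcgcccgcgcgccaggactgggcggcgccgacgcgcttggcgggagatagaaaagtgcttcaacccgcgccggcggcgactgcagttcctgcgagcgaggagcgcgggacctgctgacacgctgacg
In RBL1 the E2F letters begin 26 and 16 bases before the start and do not overlap each other. In LIN52 they begin 25 bases before it, and the CCAAT letters lie on the minus strand, at the far end of the window. CHR letters occurred in windows of RBL2, LIN9, LIN37 and LIN54, and CCAAT in windows of RBL2, LIN37, LIN52 and RBBP4. The RB1 window, which held no match, starts at chr13:48476200, inside the gene as annotated from 48303726. A match describes letters in the window and does not show binding. Only these exact letters were searched, so a window without a match, such as that of MYBL2, may still hold other forms of these sites.

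**Figure D4:**
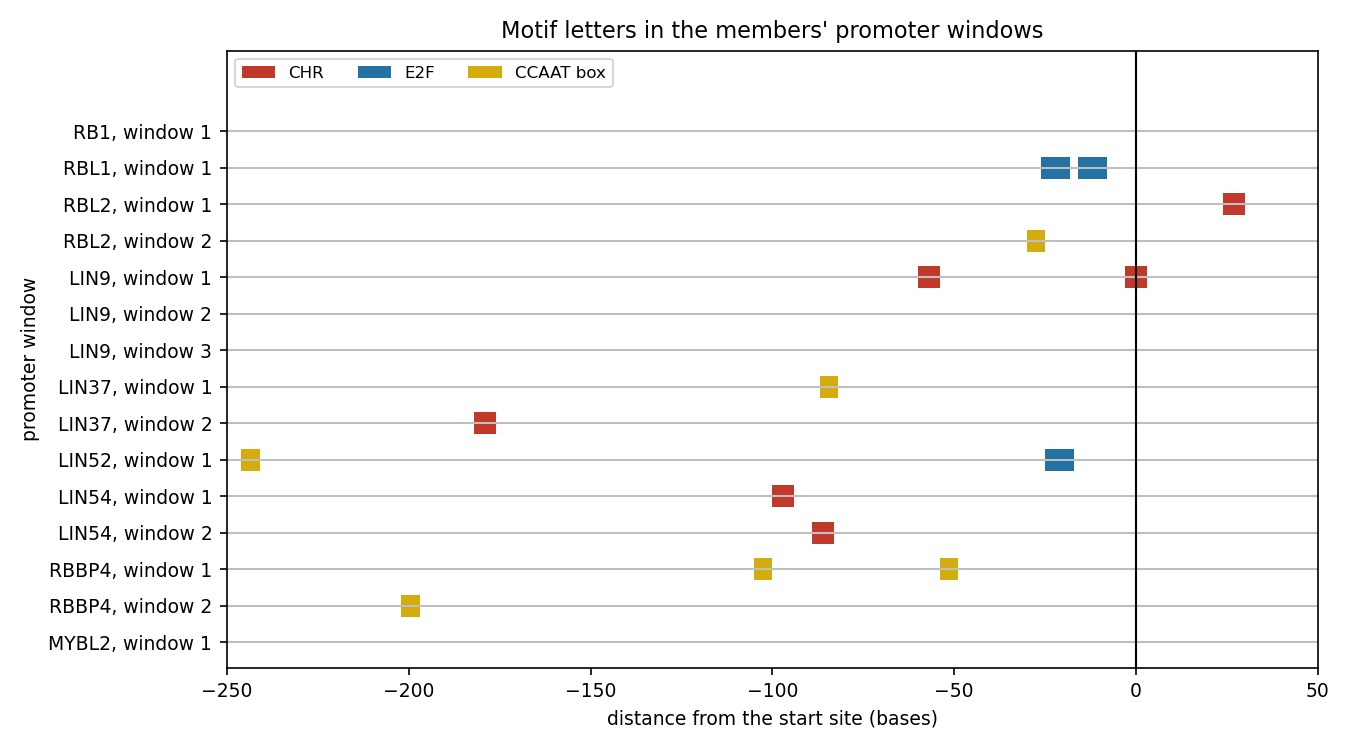
Positions of the CHR (red), E2F (blue) and CCAAT (yellow) letters in the 15 promoter windows of 9 members, as distance in bases from the start site at 0. RBL1 holds E2F matches that begin 26 and 16 bases before the start, and LIN52 one that begins 25 bases before it.

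In GENCODE release 29 (GRCh38), exons of other genes cover part of some members, and the strand used in counting is not given in the sources used here. For LIN37, 54.0% of the exon bases are shared with other genes, part of them on the same strand, and these reads may be split. Shared bases were 18.2% for RBL2, 18% for RBBP4, 15.9% for FOXM1 and 3.54% for RBL1, on the opposite strand. ITFG2, which overlaps FOXM1, was itself lower, from a mean of 21.1 to 13.7 CPM, with a log2 fold change of -0.62 (SE 0.10), and without strand its reads in the shared bases cannot be told apart from those of FOXM1. MYBL2, RB1, LIN9, LIN52 and LIN54 shared no exon bases. RBBP4 also has processed pseudogenes, so its reads can be shared with near-identical copies.

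E2F1 to E2F6 bind DNA with a DP partner, whereas E2F7 and E2F8 bind it without one. Pocket proteins act through E2F1 to E2F5, and E2F6, E2F7 and E2F8 lack the pocket protein binding domain. Of the 10 E2F and DP genes 8 were called lower and 1 higher, beside 35.3% and 35.5% of all genes, with a median log2 fold change of -0.79 against 0.02 over all genes tested. With total counts 7 were called lower, beside 26.1% of all genes, and their median was -0.635. E2F8, an atypical repressor E2F, fell by 1.58 (SE 0.10), E2F2 by 1.42 (SE 0.09) and E2F1 by 1.29 (SE 0.08) on the log2 scale. E2F4, the main E2F of DREAM, had 155, 156 and 156 CPM in Ctrl and 101, 93.8 and 103 CPM in WNK463. E2F5, its relative in DREAM, rose from counts of 23, 41 and 28 to 61, 72 and 53, a log2 fold change of 0.94 (SE 0.27). TFDP1, the DP partner with most counts, was 1.96-fold lower, and TFDP2 and E2F7 were lower at -0.80 (SE 0.09) and -0.78 (SE 0.07). E2F3 was called lower at -0.30 (SE 0.08), but not with total counts, at -0.15. E2F6 had a log2 fold change of -0.09 (SE 0.08), was not called and turned to 0.06 with total counts.

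The kinases, cyclins and inhibitors listed upstream of the pocket proteins and DREAM, DYRK1A and DYRK1B among them, moved both ways. Of these 18 genes 7 were called lower and 10 higher, beside 35.3% and 35.5% of all genes tested. Their median log2 fold change was 0.19 with TMM and 0.35 with total counts, where the median of all genes was 0.17. In limma on log2(TPM + 0.1) their median was 0.41, against 0.18 over all genes. In that fit 4 were called lower and 11 higher, beside 22.5% and 43.1% of all genes. CDK2, the partner of cyclins E and A, fell by 1.43 on the log2 scale (SE 0.07), CCNE2 by 1.24 (SE 0.11) and CDK4 by 0.95 (SE 0.06). CDKN1B (p27), an inhibitor of these kinases, had 80.8, 89.2 and 90.1 CPM in Ctrl and 198, 194 and 195 CPM in WNK463, a rise of 2.26-fold. CDKN1C (p57) rose from counts of 3, 3 and 5 to 72, 58 and 64, at a log2 fold change of 4.04 (SE 0.36), which was 2.21 on log2(TPM + 1). CDKN2B (p15) rose from 17, 21 and 16 counts to 55, 73 and 55, at a log2 fold change of 1.69 (SE 0.27), or 0.97 on log2(TPM + 1). The list pools genes of opposite action, so its median hides a split by role. With TMM most of the inhibitors were called higher, and most of the cyclin-dependent kinases and cyclins lower. Some went the other way. CDK6, CCND3 and CCND2 were called higher, at 0.30, 0.39 and 0.28, and the inhibitor CDKN2A was called lower at -0.31, but not with total counts, at -0.16.

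Genes that control MYBL2 and FOXM1 proteins were called lower in 9 of 11 cases and higher in 2, beside 35.3% and 35.5% of all genes, with a median of -0.41. With total counts the median was -0.26 and 7 were called lower, beside 26.1% of all genes, and in limma on log2(TPM + 1) it was -0.14 with 6 called lower, beside 22.5%. Of these genes 4, CENPF among them, are also in the list of G2 and M phase genes. MELK, a kinase that phosphorylates FOXM1, fell by 1.09 (SE 0.07), CCNF, a partner of MYBL2, by 0.85 (SE 0.06) and SKP2, a ubiquitin ligase subunit, by 0.73 (SE 0.07). CENPF and BTRC rose, at 0.49 (SE 0.08) and 0.46 (SE 0.08).

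Of 18 genes listed as partners of RBBP4 outside MuvB, 14 were called lower and 2 higher, beside 35.3% and 35.5% of all genes. Not each of them need be a subunit of a complex that contains RBBP4. Their median was -0.41, or -0.26 with total counts, where 12 were called lower, beside 26.1% of all genes. RBBP7, given above as a paralog, is also in this list, so its fall is counted in both. CHAF1B and CHAF1A, subunits of the chromatin assembly factor that loads histones behind replication forks, fell 6.39-fold and 3.08-fold. MTA3, of the NuRD complex, had counts of 33, 46 and 59 in Ctrl and 5, 2 and 1 in WNK463. So few counts leave its log2 fold change of -4.11 (SE 0.46) loose, and it was -1.49 on log2(TPM + 1). SAP30 rose by 0.91 (SE 0.15) and CHD4 by 0.21 (SE 0.04).

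The gene lists here and above were, like the members, chosen with earlier results of this contrast known, so their counts are a description. Genes that E2F and DREAM regulate at entry into S phase were called lower in all 37 of 37 cases, beside 35.3% of all genes. Of them 31 were called at least 2-fold lower, beside 5.55%, and the list median was -1.42. The 2-fold count was 26 with total counts and 24 in limma on log2(TPM + 1), where it was 3.83% and 2.21% of all genes. MCM5, a subunit of the replicative helicase, fell by 2.38 (SE 0.06), GINS2 by 2.32 (SE 0.07) and CDC6, a licensing factor, by 1.96 (SE 0.06). The smallest step in the list was that of SLBP, at -0.79. Genes of G2 and M phase that MuvB activates with MYBL2 and FOXM1 were called lower in 26 of 37 cases, higher in 5 and not called in 6, beside 35.3% lower and 35.5% higher over all genes, with a median of -0.36 and none at 2-fold with edgeR or DESeq2. UBE2C fell by 0.85 (SE 0.06), CDC20 by 0.80 (SE 0.05) and GTSE1 by 0.77 (SE 0.06), each of them a mitotic gene. CENPF, HMMR and ASPM rose, by 0.49 (SE 0.08), 0.40 (SE 0.09) and 0.38 (SE 0.09). Ctrl replicate 1 was the lowest control for each, at 289, 88.1 and 113 CPM, and without it they were still called, at 0.36, 0.27 and 0.26. Without that sample the list had 29 genes called lower and 4 higher, beside 34.8% and 34.4% of all genes, with a median of -0.46. No gene was in both of these lists, and the difference between them was not tested. They do share genes with the lists above, 3 with the upstream kinases and inhibitors, 4 with the regulators of MYBL2 and FOXM1 and 2 with the E2F and DP genes, so those counts are not separate. With total counts the medians were -1.27 and -0.21, and 20 of the G2 and M phase genes were then called lower, and 19 in limma on log2(TPM + 1), with a median of -0.16, beside 26.1% and 22.5% of all genes.

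**Figure D5:**
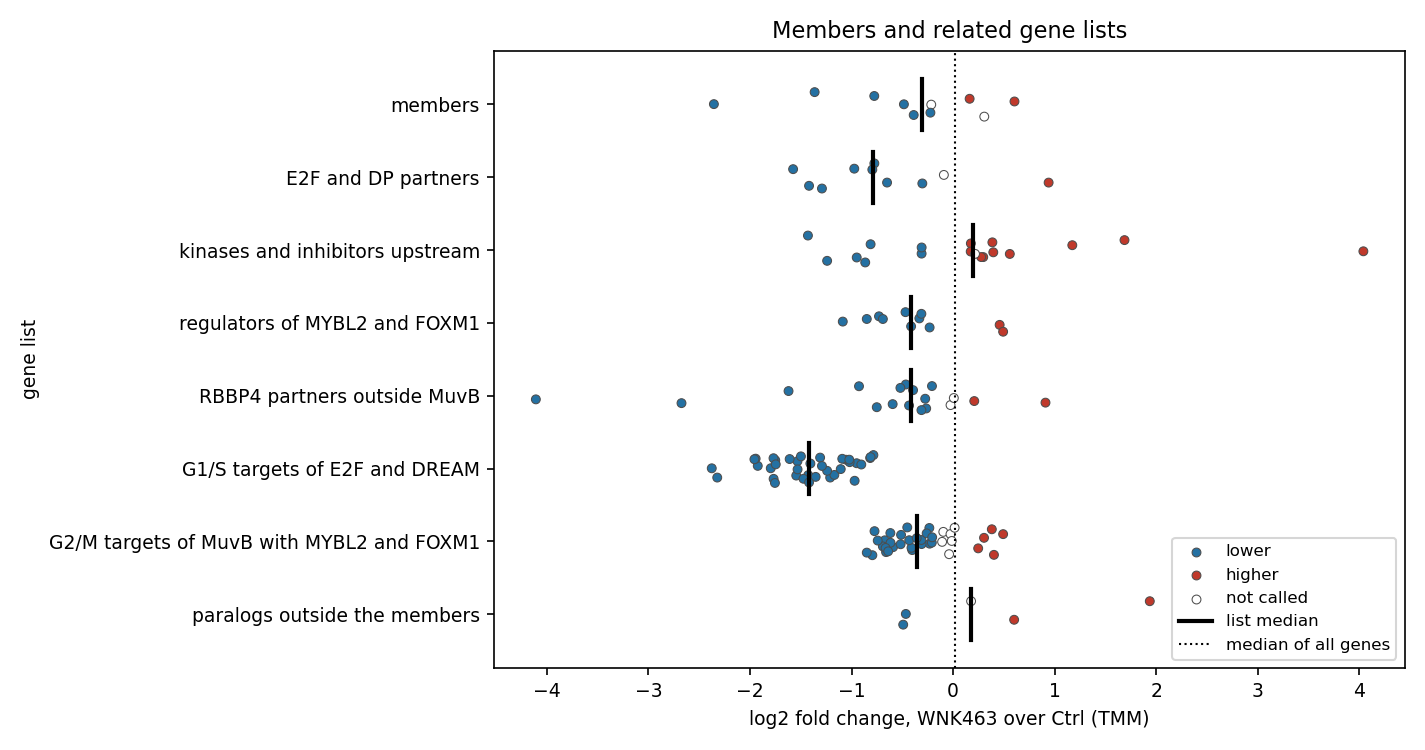
Log2 fold change, WNK463 over Ctrl (TMM), of every tested gene in the members and 7 related lists, 1 point per gene, called lower (blue), called higher (red) or not called (white), with list medians (bars) and the median of all genes tested (dotted line). The G1/S list lies wholly to the left, from -2.38 to -0.79, and the G2/M list between -0.85 and 0.49; with total counts the G2/M median is -0.21.

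The genes whose pattern over the 6 samples was most like that of MYBL2, among 9004 genes compared, were GINS2, MCM5 and CDCA7, at root mean square differences of 0.05, 0.07 and 0.10 on the log2 CPM scale. For FOXM1 they were ADCY3, NLE1 and TWNK, at 0.02, 0.02 and 0.03. With 3 samples in each group this likeness mostly measures a similar step between the groups.

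Markers were used to check the line. Among 12 myeloid genes LYZ was the most abundant, and their summed level was 2445, 2496 and 2557 CPM in Ctrl and 1506, 1507 and 1548 CPM in WNK463, a sum carried by LYZ, which fell from a mean of 1355 to 291 CPM. Of 11 tested 6 were called higher and 4 lower, beside 35.5% and 35.3% of all genes, with a median log2 fold change of 0.18. With total counts 7 were called higher and 3 lower, beside 46.1% and 26.1% of all genes. The median of the myeloid genes was then 0.33, against 0.17 over all genes. ITGAM was 2.38-fold, CSF1R 1.95-fold and HOXA9 1.65-fold higher, and KIT, MEIS1 and CEBPA were also called higher. LYZ, MPO (log2 fold change -2.50), CD33 and FLT3 were called lower, FLT3 not with total counts, and SPI1 was not called. MPO had 14, 31 and 20 counts in the WNK463 samples, and its value ranged from -2.81 to -1.48 over the alternatives. CD14 had 0 to 10 counts in a sample. Of 14 markers of other cell types 7 had no count in any sample, and 12 stayed below 1 CPM in all samples. The exceptions were PECAM1, the most abundant of them, from a mean of 96.9 to 169 CPM, and KRT8, from 9.41 to 12.5 CPM. The summed level of the 14 markers was 115, 102 and 104 CPM in Ctrl and 189, 177 and 183 CPM in WNK463. That sum was carried by PECAM1, and no other cell type is read from it. The part of the marker shifts in the members' values was not tested.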

How the data were processed

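RNA of 3 Ctrl and 3 WNK463 samples was sequenced as mRNA libraries. The authors deposited estimated counts per gene as whole numbers without normalization, and TPM values, per the file headers. The submitters' processing notes name fastp, HISAT2, Bowtie2, StringTie, RSEM, DESeq2, edgeR and the build GRCh38, without role or version. The table also holds the authors' group means, the authors' log2 fold changes and the deposited p-value and FDR columns, which were not used. Groups came from the sample titles. Genes were filtered with filterByExpr, counts were scaled by TMM, and the quasi-likelihood test of edgeR 4.0.16 (R 4.3.3) was run without a replicate block, with Benjamini-Hochberg adjustment over 11973 genes and a threshold of 0.05. The script was first tested on simulated data. SEs came from the size of the log2 fold change over the root of its F statistic. The biological coefficient of variation was 5.21%. Replicates differed by more than counting noise in every pair (chi-square per degree of freedom 2.66 to 7.42), and each was used as 1 sample. This spread does not show whether they came from separate cultures. All members matched 1 gene each by symbol. The members and lists were chosen with earlier results of these data known. Named from each list were the called genes with the 3 largest falls and the 3 largest rises whose groups did not overlap, besides all members, E2F and DP genes and paralogs outside the members; for MYBL2 and FOXM1 the 3 genes with the smallest root mean square difference of log2 CPM deviations were named, at a mean of at least 10 CPM. SLBP, CDK6, CCND2, CCND3, CDKN2A, TPM overlaps, overlapping genes and marker values were named after values were seen. The alternatives were DESeq2 1.42.0, total counts, other count filters, limma 3.58.1 on log2(TPM + 1) and log2(TPM + 0.1), a replicate block and leaving out each sample.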

Additional observations from a re-analysis of the deposited data

How the results depend on the processing

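Over 13 alternatives MYBL2, RBL1, FOXM1, RBBP4 and RB1 kept their direction and their call. Of 130 combinations of a member and an alternative, 119 gave the same call and direction, 6 lost a call, 3 gained one (LIN37) and 2 changed sign: LIN52, not called, was at 0.000973 and 0.00102 in limma on log2(TPM + 1) and log2(TPM + 0.1). LIN54 lost its call with total counts and in both limma fits, LIN9 in both limma fits (-0.29 and -0.32), and RBL2 without WNK463 replicate 1, where 1 member was called higher, against 2 without each other sample. Log2 fold changes without 1 sample ranged from -2.39 to -2.32 for MYBL2 and from -1.42 to -1.33 for RBL1. The 63 other named genes that were tested gave 816 combinations, of which 787 were the same. CDKN1C, FOXO1 and MTA3 have no value at 10 counts in every sample. Calls were lost in 18, for E2F3, CDKN2A, FLT3 and AKTIP, which overlaps RBL2, 3 were gained (SPI1) and 8 changed sign: SPI1, not called, was at -0.00109 with DESeq2 and -0.013 with no filter and ranged from -0.0254 to 0.0144 without 1 sample, and E2F6, not called, was at 0.0603 with total counts and at 0.0514 and 0.0534 in the limma fits.

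Genes called lower were 4222 with TMM and 2698 and 2694 in the limma fits. At 2-fold 1817 were called, against 1132 on log2(TPM + 1), and 665 of these were lower, against 265 on log2(TPM + 1) and 416 on log2(TPM + 0.1). Calls of 2-fold higher genes were 1152, and 740 with at least 10 counts in every sample, a filter that tests fewer genes and also leaves 1 paralog called higher in place of 2. Upstream kinases and inhibitors called lower were 7, and 4 on log2(TPM + 0.1), beside 35.3% and 22.5% of all genes. The cause of the limma differences was not tested. With the replicate number as a replicate block 4175 genes were called lower and 4223 higher. Same-numbered samples did not deviate together (correlations 0.0188, -0.00706 and -0.048), and the block changed no member's call. These values do not show whether same-numbered samples were handled together. Low counts limit LIN37 and LIN52, with SEs of 0.16 and 0.11.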
